A study of Mus musculus with 18 samples.

Results

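The cells described here are mouse embryonic stem cells of the Oct4 line, followed as leukaemia inhibitory factor (LIF) was taken from the medium. Members were the arrays whose titles name this line and LIF but not VP2, which gave 6 of the 18 arrays of the series, 2 in each of 3 groups. RNA from every culture was labelled with Cy3 and hybridised beside a universal mouse reference RNA in Cy5 to an array of 60-base probes. Each value below is therefore a log2 ratio of sample over reference, background-subtracted and dye-normalised by the scanner software.

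LIF is the cytokine that keeps mouse embryonic stem cells dividing without differentiating, through the gp130 receptor and the transcription factor Stat3. Oct4 (gene symbol Pou5f1) is a POU-domain transcription factor that these cells need to stay pluripotent. When LIF is withdrawn, stem cells lose their self-renewal programme over days and enter differentiation. The parental line ZHBTc4 has a tetracycline-regulated Oct4 transgene in place of its own working Oct4 genes, so that Oct4 can be switched off and replaced by another construct.

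All 3 groups were of strain 129/Ola and derived from ZHBTc4, with 200000 cells plated per 75 cm flask. The first group was collected 24 h after plating with LIF. In the other groups the medium was changed to one without LIF at 24 h, and RNA was taken 48 h or 120 h after withdrawal, so these cells were also older in culture. For the cultures without LIF, the labels give electroporation with a mouse Oct4 construct, its random integration, and growth with tetracycline (which silences the original transgene) and puromycin at 2 μg/ml. The LIF cultures are labelled otherwise: as a knock-in, as the lines Oct4 (4) for replicate 1 and Oct4 (5) for replicate 2, and with no word on tetracycline or puromycin. Whether the groups differed only in LIF and time is therefore not settled by the labels. The series text says that replicates are independent clones, and the clone behind each array without LIF is not given in the sources used here.

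The 2 LIF arrays stand apart from each other more than any other pair in the series. Their ratios correlated at r = 0.937 over the probes, with an SD of the difference of 0.68, against 0.47 for the 48 h pair and 0.51 for the 120 h pair. Replicate 1 with LIF correlated with the 48 h arrays at 0.878 and 0.889, replicate 2 at 0.934 with each. Both LIF arrays were scanned in a second session and the other 4 arrays in a first, and each group lay on 1 slide of its own, so slide and group cannot be told apart within the line. In the Oct4 line 62.9% to 75.2% of the probes were well above background in Cy3. Detection was judged in Cy3 alone throughout, so a ratio can also rest on a dim Cy5 reference signal. The probe annotation in the files names no gene, and the tests for named genes and stem cell, trophectoderm, endoderm, mesoderm, neural and fibroblast markers, with the check of Oct4 itself, were not analysed here. Probes are therefore given by identifier and sequence.

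These are the probes that moved most from the LIF group, shown because the results below turn on them. Capitals mark the 45 bases that the first pair share and, in the third probe, the polyadenylation signal AATAAA; the rest carry none.
Z00002490-1: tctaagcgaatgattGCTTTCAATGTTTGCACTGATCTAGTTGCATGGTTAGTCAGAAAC
Z00074574-1: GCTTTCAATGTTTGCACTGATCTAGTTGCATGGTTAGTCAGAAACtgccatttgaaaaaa
Z00029955-1: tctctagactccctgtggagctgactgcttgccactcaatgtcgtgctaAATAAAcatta
Z00039688-1: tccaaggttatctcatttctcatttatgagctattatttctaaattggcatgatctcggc
Z00037900-1: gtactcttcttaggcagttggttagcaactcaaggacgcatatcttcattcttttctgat
Z00010943-1: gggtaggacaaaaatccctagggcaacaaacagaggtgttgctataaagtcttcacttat
Z00042006-1: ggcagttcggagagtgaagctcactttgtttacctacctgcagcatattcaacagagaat
Z00025587-1: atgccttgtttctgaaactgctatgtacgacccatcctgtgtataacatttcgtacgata

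The first comparison asked what had changed 48 h after LIF was withdrawn. At 48 h, 1741 of 31727 probes tested (5.49%) passed the threshold, which was a change of 2-fold or more with a limma p, adjusted by Benjamini-Hochberg over all probes, under 0.05. Of these, 1038 were higher (3.27%) and 703 were lower (2.22%) than with LIF. Their median log2 changes were 1.57 and -1.56, and only 60 risers and 50 fallers changed 8-fold or more. Among the risers, 307 were not well above background on either LIF array, so their ratio with LIF rests on a dim signal. Over all probes the median change was 0.07, and 87.9% stayed within 2-fold.

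The count at 48 h depended on the LIF arrays. Without replicate 1 with LIF, 421 probes passed, 232 higher and 189 lower, and without replicate 2 with LIF, 2661 passed. Without replicate 1 at 48 h the count was 757, and without replicate 2 it was 946. With the scan session as a block it was 770. That block could be estimated only from the ZHBTc4 pairs at 48 h and 120 h, the only groups split between sessions. In those pairs session also goes with replicate and slide, so the block cannot separate session from LIF in the Oct4 line. With background correction by normexp and loess normalisation the count was 876, split 443 to 433. Taking the Cy3 channel alone gave 1265 higher and 1307 lower, so on that scale risers did not outnumber fallers.

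The deepest early fall was read by a pair of overlapping probes that share 45 bases. With LIF Z00002490-1 stood at 1.5 and 0.49. At 48 h it was at -4.51 and -4.17, and at 120 h at -4.83 and -2.65. Both LIF arrays were above all 4 arrays without LIF, and the 48 h and 120 h arrays overlapped. Its log2 change at 48 h was -5.34 ± 0.72 (SE, n = 2 arrays per group; limma, Benjamini-Hochberg adjusted p = 0.0024), and the step from 48 h to 120 h was 0.61 ± 0.72 (adjusted p = 0.55). Z00074574-1 gave 1.55 and 0.29 with LIF, -4.09 and -4.16 at 48 h, then -4.28 and -2.58 at 120 h. Its change of -5.04 ± 0.71 (limma, Benjamini-Hochberg adjusted p = 0.0028) was thus a second reading of the same stretch. Only 1 of the 120 h arrays was well above background for each probe. The changes were -2.74 and -2.71 under normexp and loess, and both calls were lost when only the 6 Oct4 arrays were fitted.

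Of the early risers, Z00029955-1 peaked at 48 h. It was at -2.75 and -1.96 with LIF, not well above background on either array, then at 2.84 and 3.75 at 48 h and 0.28 and -0.15 at 120 h. The 3 groups did not overlap, and 120 h lay between the others. In Cy3, with the dim signal raised to a floor, the rise at 48 h was 15.3-fold. That floor is the lowest signal among probes well above background on the arrays of the dim group. Such Cy3 values come from the processed signals after the mean log2 intensity of Cy3 and Cy5 was quantile-normalised between arrays. They hold for that scale only and are no lower bound under other processing. The ratio rose by 5.64 ± 0.32 at 48 h (limma, Benjamini-Hochberg adjusted p = 5.9e-05) and then fell by 3.23 ± 0.32 from 48 h to 120 h (adjusted p = 3.7e-05). The rise at 48 h still passed under normexp and loess, at 1.99 on the log2 scale, which is less than the Cy3 value.

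Z00039688-1 behaved alike, at -0.05 and 0.37 with LIF, where it was also dim, 4.29 and 5.61 at 48 h, then 2.55 and 2.4 at 120 h. Its arrays fell into the same order, with 48 h highest and LIF lowest and no overlap. The change was 4.79 ± 0.54 at 48 h (limma, Benjamini-Hochberg adjusted p = 0.0013), and 4.48-fold in Cy3 with the floor. Under normexp and loess the log2 change was 0.96, less than the Cy3 value, and no longer passed.

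**Figure D1:**
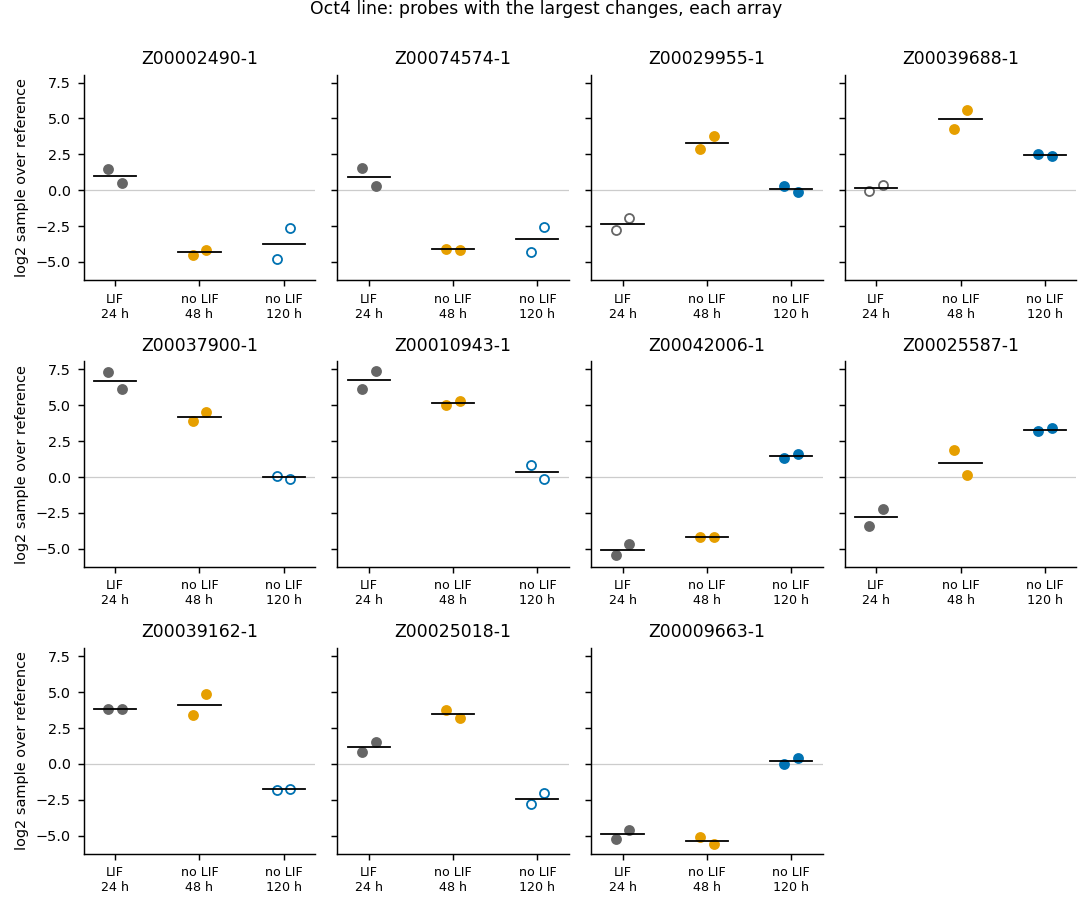
Each panel is a probe of the Oct4 line and each point an array, in log2 sample over reference on the vertical axis, for LIF at 24 h and for 48 h and 120 h without LIF; bars are group means, and open points mark groups with fewer than 2 arrays well above background. The first 2 panels drop by 48 h, Z00029955-1 and Z00039688-1 peak at 48 h, and Z00042006-1 and Z00009663-1 stay near -5 until 48 h and rise only by 120 h.

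By 120 h the change was far wider. Compared with LIF, 7108 probes passed (22.4%), 3893 higher (12.3%) and 3215 lower (10.1%), with median log2 changes of 1.63 and -1.62. Changes of 4-fold or more were seen in 1275 risers and 1067 fallers, and of 16-fold or more in 77 and 94. The same risers had a median change of 0.44 at 48 h and the fallers -0.35, although the comparisons share the LIF arrays. In Cy3, 670 risers were not well above background on either LIF array, and 337 fallers on neither 120 h array. In bulk RNA, fewer cells of a type and less RNA per cell cannot be told apart.

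This count held better than the one at 48 h. Leaving out any single array gave 5903 to 7459 probes, the lowest without replicate 1 with LIF. With the scan session as a block, which has the limit given above, 5452 passed, and under normexp and loess 3958, 2199 higher and 1759 lower.

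**Figure D2:**
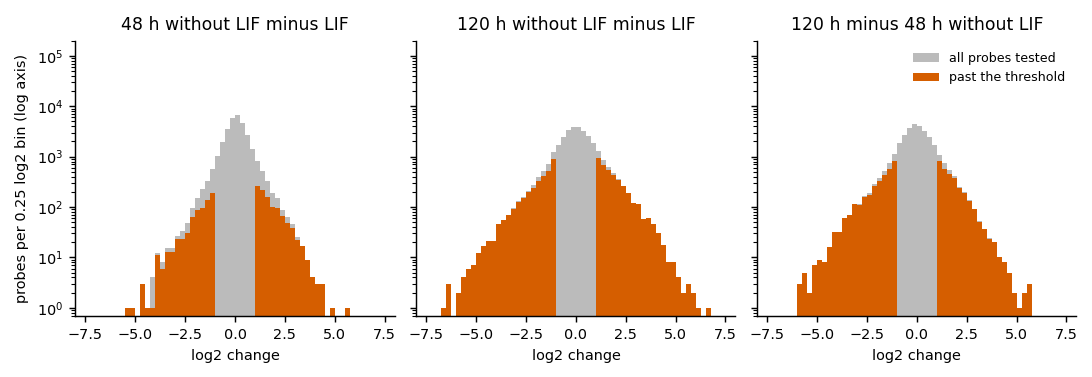
Histograms of the log2 change of the 31727 probes tested, in bins of 0.25 with a log vertical axis, for 48 h against LIF, 120 h against LIF and 120 h against 48 h; grey is all probes and orange those past the threshold. The called tails hold 1741, 7108 and 6213 probes, and the last 2 distributions are wider (SD 1.1 and 1.01) than the first (0.698).

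The largest falls from LIF to 120 h ended below detection. Z00037900-1 was at 7.29 and 6.15 with LIF and 3.89 and 4.52 at 48 h, and not well above background on either 120 h array. Its groups stepped down without overlap. The loss by 120 h was 37.6-fold in Cy3 with the dim signal at the floor. Its log2 ratio change was -6.75 ± 0.58 (limma, Benjamini-Hochberg adjusted p = 1.3e-05), of which -2.52 ± 0.58 was reached at 48 h (adjusted p = 0.022).

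Z00010943-1 was at 6.17 and 7.41 with LIF, 5.03 and 5.31 at 48 h, and again not well above background at 120 h. Every LIF array was above every 48 h array. Its log2 ratio fell by 6.42 ± 0.38 by 120 h (limma, Benjamini-Hochberg adjusted p = 3.3e-06), a size that rests on a dim 120 h signal. In Cy3 with the floor the fall was 177-fold, more than the 85.6-fold of the ratio. The Cy5 reference signal of this probe was thus also lower at 120 h than with LIF. Under normexp and loess both probes still passed, with changes of -4.02 for this one and -2.69 for Z00037900-1, each less than its Cy3 value.

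The largest rises differed in their timing. Z00042006-1 read -5.44 and -4.70 with LIF, -4.16 and -4.21 at 48 h, then 1.34 and 1.59 at 120 h, well above background on all 6 arrays. LIF and 48 h arrays sat close together and far under the 120 h arrays. Its ratio rose 92.3-fold by 120 h (6.53 ± 0.40 on the log2 scale; limma, Benjamini-Hochberg adjusted p = 3.5e-06), while the change at 48 h was 0.88 ± 0.40 (adjusted p = 0.18). Z00025587-1 had moved earlier, from -3.41 and -2.23 with LIF to 1.85 and 0.17 at 48 h and 3.20 and 3.42 at 120 h. Here the 3 groups climbed without overlap, by 3.83 ± 0.61 at 48 h (limma, Benjamini-Hochberg adjusted p = 0.0045) and 6.13 ± 0.61 at 120 h (adjusted p = 2.9e-05), a 70.2-fold rise.

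From 48 h to 120 h, both without LIF and all scanned in the first session, 6213 probes passed (19.6%). Of these 3018 rose (9.51%) and 3195 fell (10.1%), by medians of 1.56 and -1.61. The count was 6112 when only arrays of the first session were fitted, an alternative chosen after the data were seen, and 4726 to 5966 when a single array was left out. The risers of this step had a median of -0.07 between LIF and 48 h, and the fallers 0.31. That is, the probes that fell late stood slightly higher at 48 h than with LIF, and both values share the 48 h arrays.

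Besides Z00042006-1, the following probes had the largest called changes in this step, and they are shown with no base marked.
Z00039162-1: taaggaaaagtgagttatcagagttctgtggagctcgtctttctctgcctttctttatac
Z00025018-1: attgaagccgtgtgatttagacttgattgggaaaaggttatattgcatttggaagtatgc
Z00009663-1: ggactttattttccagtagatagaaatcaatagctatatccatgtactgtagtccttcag

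Z00039162-1 was at 3.83 and 3.80 with LIF, 3.43 and 4.85 at 48 h, then -1.85 and -1.72 at 120 h, where 1 of the 2 arrays was well above background. The LIF values lay inside the range of the 48 h values. It fell by 5.93 ± 0.35 in the step, 61-fold (limma, Benjamini-Hochberg adjusted p = 3.1e-06), and its change at 48 h was 0.33 ± 0.35 (adjusted p = 0.59). This step was -3.01 under normexp and loess.

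Z00025018-1 rose before it fell. It read 0.85 and 1.56 with LIF, 3.79 and 3.19 at 48 h, then -2.78 and -2.06 at 120 h, where it was not well above background. Its groups did not overlap, with 48 h highest and 120 h lowest. The rise at 48 h was 2.29 ± 0.30 (limma, Benjamini-Hochberg adjusted p = 0.0021), and the fall after it was 32.3-fold in Cy3 with the floor (log2 ratio change -5.91 ± 0.30; adjusted p = 1.7e-06). That fall still passed under normexp and loess, at -1.98 on the log2 scale, which is less than the Cy3 value.

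Of the late risers, Z00009663-1 followed Z00042006-1. Its arrays gave -5.25 and -4.58 with LIF, -5.13 and -5.61 at 48 h, then -0.02 and 0.42 at 120 h. LIF and 48 h overlapped, and both 120 h arrays were far above them. The step was 5.57 ± 0.61, or 47.6-fold (limma, Benjamini-Hochberg adjusted p = 6.2e-05).

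**Figure D3:**
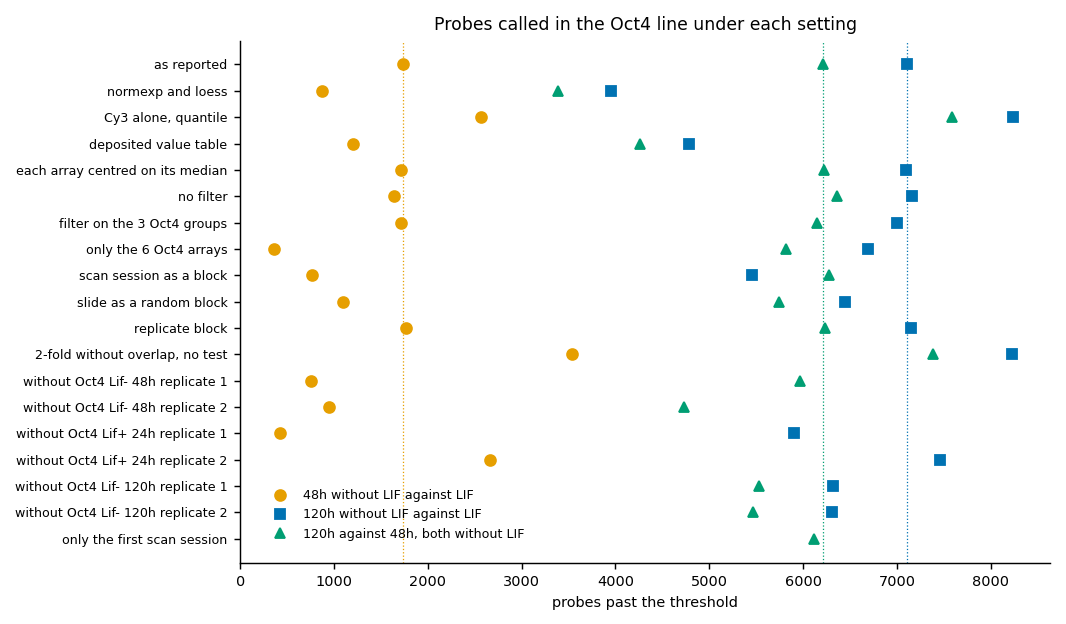
Number of probes past the threshold (horizontal axis) in the Oct4 line for each of the 3 comparisons, as reported (dotted lines) and under each other setting, 1 row per setting. The 48 h count moves between 361 and 3542, while under every setting drawn the lowest 120 h count is 3958 and the lowest for the step 3385.

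Some probes share sequence with each other, and their changes were compared within such groups. An exact shared run of 20 bases joined 2012 tested probes into 909 groups, a length chosen after runs of 20, 30 and 40 had been looked at with values shown. In the 822 groups of 2, the partners' 120 h changes differed by a median of 0.21, and by 0.20 in 638 pairs at a run of 30. Both partners passed the same way at 120 h in 155 of the 255 pairs with at least 1 call, and none (0) passed in opposite directions. Partners, like the members of the larger groups below, share sequence, array and RNA, so they are no independent readings. Whether several transcripts changed was not tested.

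Of the 13 groups with 6 or more probes, 119 probes in all, 6 had at least 1 probe past the threshold at 120 h and none was called both ways. In sum, 9 members were higher (12.3% of all probes were) and 19 lower (10.1% were). In 4 groups, 4 or more members passed. The sequences of 3 of these groups follow, 2 probes each, with capitals for the 20-base run that the most members share, which is in 16 of 25, 3 of 7 and 7 of 8 probes of the groups in this order.
Z00073036-1: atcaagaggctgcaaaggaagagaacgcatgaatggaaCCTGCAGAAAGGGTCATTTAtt
Z00073039-1: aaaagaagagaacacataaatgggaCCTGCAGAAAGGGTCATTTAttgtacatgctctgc
Z00055646-1: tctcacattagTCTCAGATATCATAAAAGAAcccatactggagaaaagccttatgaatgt
Z00060976-1: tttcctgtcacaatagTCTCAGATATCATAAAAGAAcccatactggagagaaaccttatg
Z00075782-1: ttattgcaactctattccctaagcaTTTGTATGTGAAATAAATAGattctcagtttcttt
Z00075784-1: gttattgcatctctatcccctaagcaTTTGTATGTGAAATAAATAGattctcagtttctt

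The group of 25 probes, to which the first 2 sequences belong, had medians far above the reference with LIF and lost signal late. Its median level per array was 5.63 and 5.41 with LIF, 5.30 and 5.55 at 48 h, then 3.78 and 4.44 at 120 h. LIF and 48 h overlapped and both 120 h medians lay under them. The median change was -0.11 at 48 h, with no member (0) called, and -1.73 at 120 h, with 11 lower, none (0) higher and 22 of 25 below 0. The count moved to 21 lower under normexp and loess, to 2 with the scan session as a block, and to 1 lower and 1 higher without replicate 1 with LIF, while the median stayed at -1.74, -1.27 and -1.67. Of its members, Z00073039-1 fell from 6.83 and 6.58 to 4.61 and 4.57, a change of -2.12 ± 0.67 (limma, Benjamini-Hochberg adjusted p = 0.026). Z00073032-1 and Z00073033-1 have identical sequences and were counted as separate members. With LIF the first read 2.83 and 3.51 and the second 7.54 and 7.14, so levels of single probes here are unreliable. Their 120 h changes were -2.22 and -1.88, and only the first was called (limma, Benjamini-Hochberg adjusted p = 0.026 and 0.14). The cause of this gap in level was not tested.

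A group of 7 probes, with the middle 2 sequences, fell more steadily. Its medians were 3.20 and 2.79 with LIF, 2.39 and 2.54 at 48 h, then 1.56 and 1.51 at 120 h, so the 3 groups of arrays stepped down without overlap. All 7 members were below 0 in both changes. At 120 h 4 were lower, and 4 were lower also under normexp and loess and without either LIF array. Z00060976-1 went from 5.40 and 5.03 with LIF to 3.25 and 2.77 at 120 h (-2.21 ± 0.24; limma, Benjamini-Hochberg adjusted p = 5.5e-05).

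A group of 10 probes rose late and narrowly. It had medians of -1.25 and -1.42 with LIF, -0.99 and -1.31 at 48 h, then -0.25 and -0.34 at 120 h. LIF and 48 h overlapped, and both 120 h arrays were above them. Its changes at 120 h ran from 0.80 to 1.46 with a median of 1.05, and 5 of the 10 passed 2-fold. With the scan session as a block the median was 0.69 and 1 passed.

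The group of 8, with the last 2 sequences, rose early: all 8 were higher at 48 h, by a median of 1.46. Its medians were -1.30 and -0.86 with LIF, 0.58 and 0.51 at 48 h, then 0.24 and 0.02 at 120 h, with LIF lowest and no overlap between groups. At 120 h 4 of the 8 were higher, 2 without replicate 1 with LIF and none (0) under normexp and loess, and all 8 with the scan session as a block. None (0) of the 8 passed at 48 h without replicate 1 with LIF, when the median was 1.26, or under normexp and loess, when it was 0.59. Z00075782-1 had the largest rise at 120 h, from -2.08 and -1.21 to 1.44 and 1.37 (3.05 ± 0.49; limma, Benjamini-Hochberg adjusted p = 6e-04). Z00075781-1 and Z00076172-1 have identical sequences and were counted as separate members of the 8. Their changes were close, at 1.41 and 1.34 at 48 h and 0.70 and 0.66 at 120 h.

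**Figure D4:**
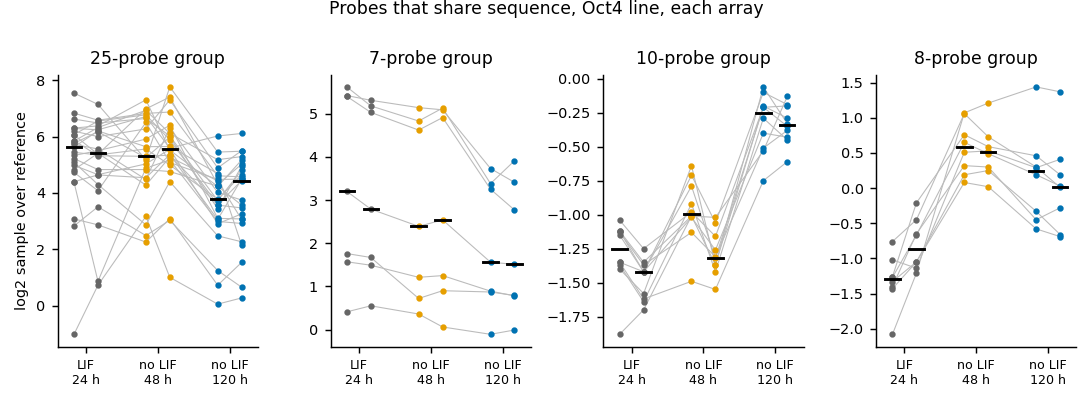
Levels of the 25-, 7-, 10- and 8-probe sequence groups in log2 sample over reference (vertical axis, a scale of its own per panel) on the 6 Oct4 arrays; points are probes, grey lines join the values of a probe and black bars are medians per array. The 25- and 7-probe groups are lowest at 120 h, the 10-probe group is highest at 120 h, and the 8-probe group is highest at 48 h.

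A few probes could be placed near annotated gene starts by their own sequence. RefSeq windows of GRCm38.p6 reach from 250 bases before to 50 bases after an annotated gene start. Of the probes tested, 204 lay whole in such a window at 1 place among the windows. Another 70 began in the window of 1 gene, with at least 25 bases matched, and ran past its end. Only these windows were searched, so copies elsewhere in the genome were not looked for. Of the 274, 22 were higher (8.0%) and 21 lower (7.7%) at 120 h, below the 12.3% and 10.1% over all probes. A probe upstream of an annotated start lies near that gene and is not shown to read its transcript. Among the 465 genes of the lists of markers and pathways, 1 had a probe so placed on its strand, Acta2, the smooth muscle actin. Its change was -0.24 ± 0.33 at 120 h (limma, Benjamini-Hochberg adjusted p = 0.59). The probe was well above background on only 1 array with LIF and 1 array at 120 h. The lack of a call therefore rests on dim signals.

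On the strand of the gene there were 166 placed probes, of which 14 were higher and 14 lower at 120 h. Both are smaller shares than the 12.3% higher and 10.1% lower over all probes tested. Of these 28, 10 kept their call under normexp and loess, 4 higher and 6 lower, and the genes named next were chosen from those 10 after their values were seen. A pair of overlapping probes at the start of Rpl38, which codes for a protein of the large ribosomal subunit, lie at chr11:114668526-114668585 and chr11:114668538-114668597 on the plus strand. They are shown as the case where 2 placed probes can be compared, and capitals mark the 48 bases they share.
Z00075310-1: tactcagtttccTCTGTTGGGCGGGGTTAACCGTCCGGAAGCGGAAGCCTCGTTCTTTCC
Z00032009-1: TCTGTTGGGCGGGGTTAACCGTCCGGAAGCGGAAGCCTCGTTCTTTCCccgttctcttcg

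The first of them, mostly upstream of the annotated start, gave 2.39 and 2.58 with LIF, 2.89 and 3.31 at 48 h, then 1.35 and 1.13 at 120 h. The second gave 1.75 and 2.16, then 2.66 and 2.96, then 1.32 and 1.26. For both, 48 h was highest and 120 h lowest, with no overlap. From 48 h to 120 h they fell by 1.86 ± 0.23 and 1.53 ± 0.20 (limma, Benjamini-Hochberg adjusted p = 0.00011 and 0.00016). Against LIF the first passed (-1.25 ± 0.23; adjusted p = 0.0012; -0.81 and not called with the scan session as a block) and the second did not reach 2-fold (-0.67 ± 0.20; adjusted p = 0.018).

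Hmgb2 codes for a chromatin protein that bends DNA. Its probe, at chr8:57511788-57511847 on the plus strand across the start and mostly upstream of it, gave 2.93 and 2.19 with LIF, 2.08 and 1.39 at 48 h, then 1.42 and 0.90 at 120 h. The LIF arrays were above the others, and 48 h and 120 h overlapped. It fell by 1.40 ± 0.39 at 120 h (limma, Benjamini-Hochberg adjusted p = 0.013), a call that was lost without replicate 1 with LIF (-1.03) and with the scan session as a block (-1.35).

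Cyba codes for a subunit of the NADPH oxidase of phagocytes. Its probe starts just upstream of the annotated start, at base -1, on the minus strand. Its first 51 bases matched at chr8:122432891-122432941, and the rest were not placed. It stood at -1.17 and -1.20 with LIF, -0.64 and -1.04 at 48 h, then 0.89 and 1.01 at 120 h. The 120 h arrays were clear of all others. The rise was 2.13 ± 0.29 (limma, Benjamini-Hochberg adjusted p = 0.00019), and it stayed past the threshold under normexp and loess (1.59), with the scan session as a block (1.35) and without replicate 1 with LIF (2.15).

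The probe at the start of Leng1, at chr7:3665794-3665853 on the minus strand, followed the same late course. Its values were -0.65 and -0.77 with LIF, -0.60 and -0.46 at 48 h, then 0.94 and 1.19 at 120 h. Again only the 120 h arrays stood out, by 1.77 ± 0.17 (limma, Benjamini-Hochberg adjusted p = 2.7e-05). In the other direction, the probe on the strand of 5730408K05Rik at chr19:8888763-8888822 went from 1.82 and 1.11 with LIF and 1.36 and 1.5 at 48 h to -0.46 and -0.72. This was a fall by 2.05 ± 0.26 at 120 h (limma, Benjamini-Hochberg adjusted p = 0.00014), with LIF and 48 h overlapping.

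The Oct4 course was then set against the other lines at the same times, on arrays it does not share. These lines were not grown alike: 250000 cells per flask were plated for Oct4 VP2 and 200000 for ZHBTc4. The labels give puromycin at 2 μg/ml for every Oct4 VP2 group and none for ZHBTc4. The probes that rose in Oct4 by 120 h had a median 120 h change of 1.29 in parental ZHBTc4 and 0.48 in Oct4 VP2, which carries an Oct4 construct fused to VP16, an activation domain. Over all probes these medians were -0.02 and -0.06. Of the risers, 62.0% were 2-fold or more higher in ZHBTc4 and 27.5% in Oct4 VP2, against 14.9% and 9.4% of all probes. For the fallers the medians were -1.23 and -0.37, with 58.8% and 18.3% at least 2-fold lower, against 12.3% and 6.0%. The same order was seen at 48 h, with medians of 1.02 and 0.54 for the Oct4 risers and -1.15 and -0.40 for the fallers. For the step from 48 h to 120 h the medians were 1.0 and 0.47 for the risers and -0.98 and -0.38 for the fallers. With LIF, the Oct4 and ZHBTc4 arrays were of the second scan session and the Oct4 VP2 arrays of the first. In the changes from LIF, line and session therefore cannot be told apart. These sets were chosen on the Oct4 values, so a smaller change elsewhere is no test.

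The difference in the 120 h change between Oct4 and ZHBTc4 was tested directly and passed for 1806 probes (5.69%), 820 with the more positive change in Oct4 (2.58%) and 986 with the more negative (3.11%). It rests on single arrays: 808 passed without replicate 1 of ZHBTc4 with LIF, 880 without its replicate 2, 1028 without replicate 1 of Oct4 at 120 h and 1190 without replicate 1 of Oct4 with LIF. The labels give no tetracycline or puromycin for ZHBTc4, and its 120 h arrays were split between the scan sessions. In Oct4 the LIF and 120 h cultures differ in their labels for construct, tetracycline and puromycin, as given above. The line and these conditions cannot be told apart in this difference. Z00040025-1 went opposite ways. In Oct4 it was at -5.36 and -4.76 with LIF and not well above background at 120 h, while in ZHBTc4 it rose from -5.43 and -5.57 to -1.46 and -1.35. The lines were close with LIF and far apart at 120 h, with a difference of changes of -7.47 ± 0.44 (limma, Benjamini-Hochberg adjusted p = 1.4e-05). The size of this difference rests on a 120 h signal at background in Oct4, and under normexp and loess it was -2.46, still called.

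Z00025943-1 rose in ZHBTc4 from -2.86 and -2.73 to 2.26 and 1.84, and in Oct4 it went from -2.78 and -1.36 to -3.79 and -3.97. Its change in Oct4 did not pass (-1.81 ± 0.83; limma, Benjamini-Hochberg adjusted p = 0.10), and the difference of changes did (-6.66 ± 1.2; adjusted p = 0.0082; -5.33 under normexp and loess), with all these groups well above background. Z00052949-1 was at similar levels in Oct4 throughout, with 1.66 and 2.44 with LIF and 2.39 and 2.31 at 120 h. In ZHBTc4 it went from 4.82 and 5.21 to a signal not well above background on either array. The difference was 5.61 ± 0.82 (limma, Benjamini-Hochberg adjusted p = 0.0033), which likewise rests on a dim end, and 2.58 and still called under normexp and loess. For Z00025625-1 the difference of 5.29 ± 1.1 (adjusted p = 0.017) fell short in 4 of the fits that left out 1 array. It was not well above background on either ZHBTc4 array at 120 h, and in Oct4 on 1 of 2 arrays both with LIF and at 120 h. Its difference was 1.08 under normexp and loess.

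The step from 48 h to 120 h differed between Oct4 and Oct4 VP2 for 2759 probes (8.70%), 1210 more positive (3.81%) and 1549 more negative (4.88%) in Oct4. All 8 arrays of this test were of the first scan session. It fell to 1647 without replicate 2 of Oct4 at 48 h. Z00042006-1, the late riser above, was at -4.08 and -4.36 at 48 h and -3.71 and -5.10 at 120 h in Oct4 VP2, where the groups overlapped. Its difference of steps was 5.83 ± 0.57 (limma, Benjamini-Hochberg adjusted p = 0.00045), and ZHBTc4 lay between, at -1.27 and -0.40 at 120 h.

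Z00030154-1 was bright at 48 h in Oct4 (5.49 and 6.5) and not well above background at 120 h. In Oct4 VP2 it was at 4.5 and 7.28 at 48 h, which lay far apart, and at 6.19 and 6.06 at 120 h. The difference of steps was -5.99 ± 1.0 (limma, Benjamini-Hochberg adjusted p = 0.0049), and -0.79 and no longer called under normexp and loess. Z00047312-1 went from 4.90 and 6.92 to 1.61 and 1.79 in Oct4 and from 4.83 and 2.65 to 5.87 and 4.81 in Oct4 VP2 (-5.82 ± 1.0; limma, Benjamini-Hochberg adjusted p = 0.006). At 120 h in Oct4 1 of its 2 arrays was well above background, and under normexp and loess the difference was -1.96. Z00028486-1 was not well above background in Oct4 with LIF or at 48 h, nor in Oct4 VP2 in any group, and reached 3.41 and 4.55 in Oct4 at 120 h. Its difference of 5.49 ± 0.79 (adjusted p = 0.0022) was 0.64 and not called under normexp and loess.

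**Figure D5:**
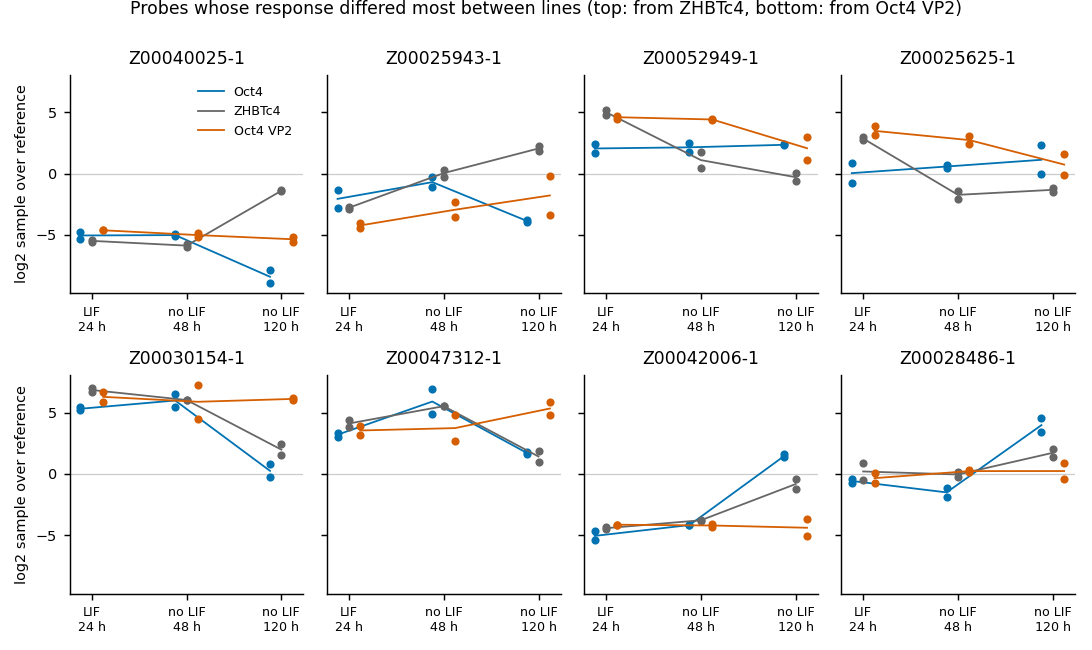
Log2 sample over reference (vertical axis) of 8 probes in Oct4 (blue), ZHBTc4 (grey) and Oct4 VP2 (orange), with LIF at 24 h and without LIF at 48 h and 120 h; points are arrays and lines join group means. The top row shows the probes that differ most from ZHBTc4 in the 120 h change, among them Z00040025-1 (-7.47, with a dim 120 h signal in Oct4), and the bottom row those that differ most from Oct4 VP2 in the last step, where Z00042006-1 is at 1.34 and 1.59 in Oct4 and at -3.71 and -5.10 in Oct4 VP2 at 120 h.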

How the data were processed

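The 18 arrays have 2 colours, with the sample in Cy3 and reference RNA in Cy5. Spot intensity was read per the file headers with Agilent Feature Extraction 9.5.1.1, whose processed signals are background-subtracted and dye-normalised. The authors also deposited a value table on a log10 scale. All (100%) of its values lay within 0.001 of the log10 sample over reference ratio once each probe was centred, and its constant per probe is unknown (column medians 2.33 to 2.36).

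The log2 ratio of the deposited processed signals, Cy3 over Cy5, was averaged over spots, leaving out 1 to 19 flagged spots per array. Of 42006 probes, 31727 were tested, having a Cy3 signal well above background on the 2 arrays of any of the 9 groups. A single limma 3.58.1 model (R 4.3.3) took in all 18 arrays with a term for each group, so the spread is shared over lines (9 residual and 2.15 prior degrees of freedom); 18 probes lacked a value on an Oct4 array and were fitted on the rest. Calls took a Benjamini-Hochberg adjusted p under 0.05 over all probes and a 2-fold change. The probes named are the 2 largest called changes in each direction of each of the 5 comparisons, for changes within the Oct4 line without overlap between arrays, since the files pair no probe with a gene. The number of arrays, 2 a group, limits the precision. Members, lists and alternatives were chosen with earlier results of these data known. In the Cy5 channel alone, which held the same RNA on all arrays, the tests called 80, 375, 243, 31 and 22 probes after quantile normalisation, chosen after 2551, 664, 1725, 640 and 537 had been seen without it. The fit was tested on simulated data. Alternatives covered background correction, channel, source, centring, filter, samples, scan session, slide, replicate number and single arrays left out. The session block was estimated from the ZHBTc4 pairs at 48 h and 120 h only.

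Replicate numbers were not taken to pair the arrays. Probes sharing runs of 20 bases and matches to RefSeq windows were found with Python; probes placed on chromosome 18 were left out.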

Additional observations from a re-analysis of the deposited data

Results flagged for a closer look

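Differences between lines were singled out by the test of the difference itself. For the 120 h change, 1806 probes differed between Oct4 and ZHBTc4 (limma, Benjamini-Hochberg adjusted p under 0.05 and 2-fold), and for the step from 48 h to 120 h, 2759 between Oct4 and Oct4 VP2. Among the former the probes named had values (Oct4 minus ZHBTc4) of -7.47 for Z00040025-1 and -6.66 for Z00025943-1, and 5.61 for Z00052949-1 and 5.29 for Z00025625-1. Under normexp and loess these were -2.46, -5.33, 2.58 and 1.08. Only for Z00025943-1 were both groups of each line well above background on both arrays, so the 4 values have no order. Among the latter (Oct4 minus Oct4 VP2) the values were -5.99 for Z00030154-1 and -5.82 for Z00047312-1, and 5.83 for Z00042006-1 and 5.49 for Z00028486-1. Under normexp and loess these were -0.79, -1.96, 5.28 and 0.64, and Z00042006-1 alone of the 4 was well above background on every array of the 4 groups.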

How the results depend on the processing

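The 48 h count of 1741 moved by more than 1.5 times to 876 (normexp and loess), 361 (only the 6 Oct4 arrays), 770 (scan session as a block), 1097 (slide as a random block), 3542 (2-fold without overlap, no test) and 421 to 2661 (single arrays left out). The Cy3 channel alone called 2572 there, 49.2% higher against 59.6% in the ratios. Under normexp and loess the 120 h count was 3958 and the step 3385. With slide as a random block the difference from Oct4 VP2 was 1624. Leaving out single arrays gave 5903 to 7459 for 120 h, 4726 to 5966 for the step, 808 to 2038 for the difference from ZHBTc4 and 1647 to 2535 for that from Oct4 VP2; where a fit leaves 1 array in a group, that array is assumed to vary like the others. The cause of these moves was not tested. With a replicate block the counts were 1772, 7151, 6236, 1874 and 2795, and the deviations of same-numbered arrays correlated at -0.11, -0.02 and 0.09 between Oct4 groups. Of 320 combinations of a named probe and a setting, 311 kept the call, 9 lost it and none (0) turned its direction. The named probes were chosen as the largest called changes of these same data. Some settings, such as other filters, also leave their values unchanged, so this tally is no test of stability. A dim channel limits the size of a ratio: for such probes the value under normexp and loess was often less than that of the processed signals.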
